A study of Mus musculus with 12 samples.

Results

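The genes described here are 10 integrin subunits, taken by symbol from a table of 23184 genes: the alpha chains Itga1, Itga3, Itga5, Itga6, Itga7 and Itgav and the beta chains Itgb1, Itgb3, Itgb4 and Itgb5. They were measured by RNA sequencing in HL-1 cells, which the labels call a cardiac muscle cell line and which originated from mouse atrial cardiomyocytes, with 3 groups of 4 libraries each (12 in all). Control cells (CON, genotype WT) were infected with virus packaging pCDH and lentiCRISPRv2 and are labelled as stably expressing vector. Knockdown cells (KD, WDR62-) received virus with a CRISPR guide against Wdr62, a protein of the centrosome and mitotic spindle. Re-expression cells (RE, WDR62+) were KD cells given a second virus, pCDH-WDR62-WT-flag, so RE carried the guide as well. In the treatment labels the numbers within the construct names count upward between samples, which was read as a spreadsheet fill. DMEM with fetal bovine serum was the medium of all groups. The vector pCDH is stated for CON and RE alone, so a response to it cannot be told apart from a difference between KD and the other groups. The labels do not say whether a group was 1 clone or a pool, or whether its libraries are separate cultures. The p-values therefore reflect the spread between these samples only, and that spread may be technical. Values are TPM (transcripts per 1000000 transcripts), which are already per transcript length, and the depth behind them is unknown.

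Wdr62 transcripts were at 3.38 to 7.46 TPM in CON, 0.881 to 1.40 in KD and 0.772 to 1.99 in RE. The KD libraries lay below the CON libraries (log2 fold change -1.67 ± 0.25 SE, limma adjusted p = 0.000921), and the RE libraries did not differ detectably from KD (0.05 ± 0.25, limma adjusted p = 0.895). The species of the WDR62 construct is not stated in the labels, and reads from the sequence of another species need not be counted for mouse Wdr62. The Wdr62 values therefore do not show whether WDR62 was re-expressed, and RE stands below for the libraries labelled RE. Of the cardiac muscle markers, Myl7, Actc1 and Actn2 were listed at 0 in every library and Myh6, Ryr2 and Nppa reached at most 0.209, 0.0879 and 0.443 TPM, while Tnnt2 was at 12.9 to 26.7 and Gata4 at 4.26 to 10.97 TPM. The cardiac transcription factor Nkx2-5 was at 3.60 to 26.7 TPM, with means of 5.31 in CON, 12.1 in KD and 18.4 in RE, and Myl4, an atrial myosin light chain, was at 1.31 to 8.12 TPM. Nkx2-5 rose in KD against CON (1.095 ± 0.27, limma adjusted p = 0.0229) and in RE against CON (1.63 ± 0.27, limma adjusted p = 0.00309). Of the 12 cardiac markers, 4 averaged 1 TPM or more, and the list summed to 28.5 to 46.4 TPM in CON, 37.2 to 46.5 in KD and 39.8 to 65.5 in RE. The markers at or near 0 go against the label of cardiac muscle cells while Tnnt2, Gata4, Nkx2-5 and Myl4 were detected, and the cells are called HL-1 here by label. Of 7 fibroblast markers, Lum and Tcf21 were listed at 0 and Thy1 reached at most 0.0720 TPM, while Col1a2 was at 313 to 707 TPM and carried most of the summed level of the list. The list summed to 603 to 866 TPM in CON, 699 to 846 in KD and 359 to 517 in RE. Its single markers did not follow the sum in KD: Dcn (decorin) fell from a mean of 41.8 to 5.05 TPM and Col1a1 from 97.1 to 57.9 TPM, the 2 fibroblast markers that fell in KD against CON, and Pdgfra averaged 39.5 and 59.9 TPM. Col1a1 and Col1a2 fell in RE against KD, and Col1a1, Col1a2 and Dcn in RE against CON. Of 7 skeletal muscle markers 5 were tested, and 4 fell in KD against CON: Myod1 (means of 6.35 and 0.0313 TPM), Myf5 (12.5 and 4.69), Chrna1 (12.3 and 3.77) and Acta1 (3.33 and 0.340). Myod1, Chrna1 and Acta1 also fell in RE against CON. The skeletal muscle list summed to 362 to 653 TPM in CON, 292 to 389 in KD and 330 to 549 in RE, most of it Des. Of 3 tested leukocyte and platelet markers Lyz2 rose, from 0.924 TPM in CON to 7.15 in KD and 10.4 in RE on average, while Ptprc reached at most 0.0434 TPM. That list summed to 6.66 to 11.3 TPM in CON, 15.1 to 21.2 in KD and 16.5 to 26.7 in RE. Beside these counts of markers, 3.61% of all tested genes fell and 6.6% rose in KD against CON. In RE against KD 0.858% fell, and in RE against CON 3.63% fell and 2.7% rose. The part of the marker differences in the integrin results was not tested. In bulk RNA fewer cells of a type and less RNA per cell cannot be told apart. CON 4, RE 1 and RE 3 stood apart, more in their long transcripts than over all tested genes. For 2344 tested genes whose transcripts reach 5028 bases or more, each library's median log2 deviation from the 12-library means was taken. It was -0.83 in CON 4 and 0.47 to 0.72 in CON 1 to CON 3. RE 1 and RE 3 had -0.73 and -0.997, RE 2 and RE 4 had -0.11 and -0.13, and the KD libraries had -0.21 to 0.57. Medians over all tested genes were low in the same libraries, at -0.37 in CON 4, -0.27 in RE 1 and -0.53 in RE 3. In CON 1 to CON 3 they were 0.195 to 0.283, so the deviation was not confined to long transcripts.

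Integrins are receptors of the cell surface made of an alpha and a beta chain that pair inside the cell before they are transported. The outer parts bind proteins of the extracellular matrix, and the tail of the beta chain is joined through talin, kindlin and vinculin to actin. The pairing sets the ligand: Itgb1 pairs with every alpha chain described here, Itga6 also with Itgb4, and Itgav with Itgb1, Itgb3 and Itgb5. In heart and skeletal muscle, Itga7 with Itgb1 is the main laminin receptor at the attachment of the muscle fibre.

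RefSeq promoter windows (assembly GRCm38.p6) were at hand for Itga1, Itga3, Itga5, Itgav, Itgb1 and Itgb5. The 250 bases before the start site are shown for Itga1 and Itgb5, which rose in KD, and for Itgb1, the most abundant subunit, for contrast. Each is written 5′ to 3′ on the strand of its gene, with every GGGCGG (the core of the GC box of SP1 factors, searched on both strands and so also as CCGCCC) in capitals.
Itga1, chr13:115101965-115102214, minus strand: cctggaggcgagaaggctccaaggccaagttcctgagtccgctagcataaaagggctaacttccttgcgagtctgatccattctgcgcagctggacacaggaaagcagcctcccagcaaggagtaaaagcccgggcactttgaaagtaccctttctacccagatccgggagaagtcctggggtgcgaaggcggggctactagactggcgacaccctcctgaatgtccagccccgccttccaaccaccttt
Itgb5, chr16:33829415-33829664, plus strand: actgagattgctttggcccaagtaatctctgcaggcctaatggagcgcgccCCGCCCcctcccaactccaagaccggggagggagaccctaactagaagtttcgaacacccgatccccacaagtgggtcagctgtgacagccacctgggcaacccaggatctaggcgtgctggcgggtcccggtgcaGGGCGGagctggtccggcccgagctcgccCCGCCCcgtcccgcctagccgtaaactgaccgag
Itgb1, chr8:128685404-128685653, plus strand: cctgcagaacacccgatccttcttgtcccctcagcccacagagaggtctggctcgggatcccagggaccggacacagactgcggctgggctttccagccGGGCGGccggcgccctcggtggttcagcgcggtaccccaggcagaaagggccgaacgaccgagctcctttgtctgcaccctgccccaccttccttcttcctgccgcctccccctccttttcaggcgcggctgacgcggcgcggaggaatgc
The Itgb5 window held 3 matches, the Itgb1 window 1 and the Itga1 window 0. Among the windows not shown, those of Itga3 held 3 and 1, that of Itga5 held 2 and that of Itgav 0. Of all 32851 windows in the table, 32.7% held at least 1 match. The dinucleotide CG occurred 18 times in the Itgb5 window, 21 times in the Itgb1 window and 10 times in the Itga1 window, against a median of 6 over all windows. GC content was 65.2%, 68.0% and 57.6% for Itgb5, Itgb1 and Itga1, with a median of 52.4% over all windows. A match is a string of letters, not a measured site.

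In CON the mean levels ran from 445 TPM for Itgb1 to 1.13 TPM for Itga1. Between them came Itga5 (182), Itga7 (148), Itgb5 (132), Itga3 (87.3), Itgav (74.7), Itga6 (48.7), Itgb3 (13.6) and Itgb4 (3.18). The ranges of neighbours in this order overlapped except between Itgb5 and Itga3, between Itgb3 and Itgb4, and between Itgb4 and Itga1. Itgb1 was above Itga5 in each of the 4 CON libraries, although their ranges overlapped. In KD the order of means was the same except that Itgb5 passed Itga7 and Itgb3 passed Itga6, and in both of these pairs the ranges overlapped. Itgb5 was above Itga7 in 3 of the 4 KD libraries. Itgb3 was above Itga6 in 1 of the 4, with means of 18.0 and 17.8 TPM. The order in RE was that of KD. All 10 subunits had a mean of at least 1 TPM and were tested.

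**Figure D1:**
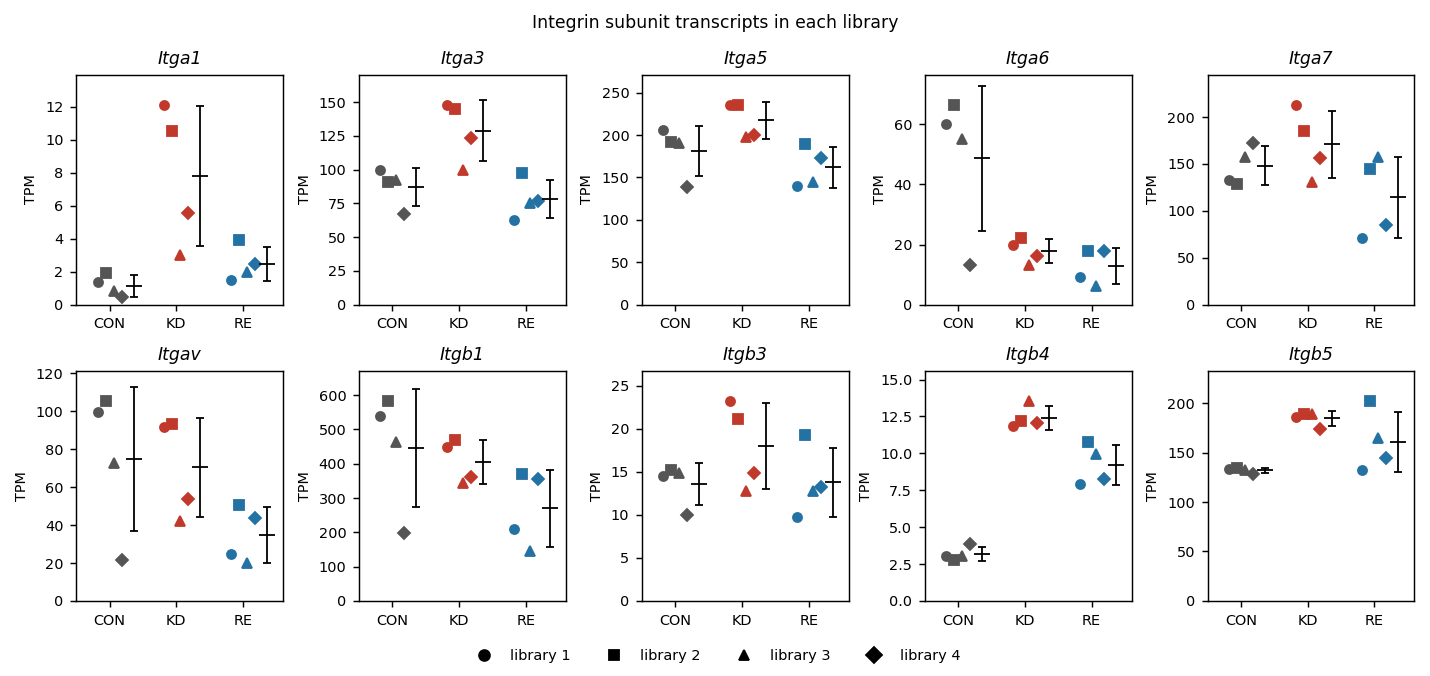
TPM (vertical axes, from 0) of the 10 integrin subunits in each library of CON, KD and the libraries labelled RE, with marker shapes for the library number and black bars for the mean ± SD of 4 libraries. Itgb4 lies at 2.80 to 3.83 TPM in CON and at 7.92 or more in every other library. CON 4 lies below the CON mean for 8 of the 10 subunits, among them Itga6, Itgav and Itgb1, for which it is the lowest CON library.

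Against CON, KD had higher transcript levels of Itga1, Itgb4 and Itgb5, and none of the 10 subunits fell past the test. In the same comparison the skeletal muscle markers Myod1, Myf5, Chrna1 and Acta1 and the fibroblast markers Dcn and Col1a1 fell and Lyz2 and Nkx2-5 rose, as given above. Of the 11774 tested genes 10.2% changed, 6.6% upward and 3.61% downward. The median log2 difference over the 10 subunits was 0.31, and over all tested genes -0.01. In 4 of the 10 the KD libraries all lay above the CON libraries, as they did for 11.9% of tested genes, the 4 being Itga1, Itga3, Itgb4 and Itgb5.

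**Figure D2:**
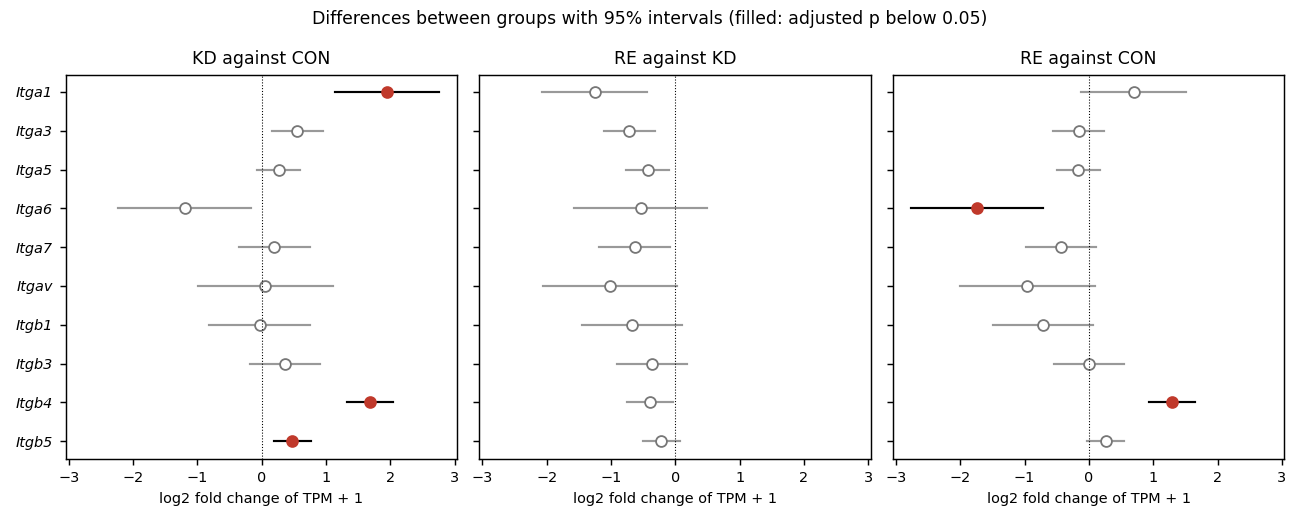
Log2 fold changes of TPM + 1 (horizontal axes) of the 10 integrin subunits in the 3 comparisons, with 95% intervals from limma and filled points for an adjusted p below 0.05. The filled points are Itga1, Itgb4 and Itgb5 in KD against CON, none in RE against KD, and Itga6 and Itgb4 in RE against CON.

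Itga1 (chr13:114953096-115101964, minus strand, GRCm38) encodes the alpha chain of a collagen and laminin receptor. Its level was 1.38, 1.91, 0.798 and 0.445 TPM in CON 1 to CON 4, 12.1, 10.54, 3.02 and 5.55 in KD 1 to KD 4, and 1.47, 3.89, 1.98 and 2.44 in RE 1 to RE 4. Every KD library was above every CON library, KD 3 was below RE 2, and the RE libraries overlapped both other groups. Itga1 rose in KD by 1.95 ± 0.37 on the log2(TPM + 1) scale (95% interval 1.13 to 2.76, limma adjusted p = 0.00533). RE against KD gave -1.25 ± 0.37 (limma adjusted p = 0.104), and the adjusted p was 0.0378 without CON 4 and 0.0339 without KD 3. CON 4 is in neither group, and with KD and RE fitted alone the limma adjusted p was 0.090. RE against CON gave 0.70 ± 0.37 (limma adjusted p = 0.220), and it passed the test after correction for transcript length (1.40, limma adjusted p = 0.00173). Pelo lies within the span of Itga1 on the same strand and shares 0 exonic bases with it. Pelo rose in KD by 0.78 (limma adjusted p = 0.00409), a smaller difference than that of Itga1, and in RE against CON by 0.97 (limma adjusted p = 0.00128). Itga1 stood at 0.0745 ± 0.0461 TPM per TPM of Pelo in CON, 0.285 ± 0.155 in KD and 0.0804 ± 0.0420 in RE (SD, n = 4). KD and CON overlapped in this ratio, with 0.108 in KD 3 and 0.129 in CON 2 (exact permutation p = 0.0571).

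The laminin-binding chains Itga3, Itga6, Itga7 and Itgb4 did not share a pattern. Itgb4 (chr11:115974709-116008412, plus strand), the beta chain with a long cytoplasmic tail that anchors keratin filaments in hemidesmosomes of epithelia, was at 3.04, 2.80, 3.05 and 3.83 TPM in CON. It was at 11.8, 12.2, 13.6 and 12.1 TPM in KD, and at 7.92, 10.8, 9.95 and 8.28 TPM in RE. The 3 groups did not overlap, with RE between the other groups. Itgb4 rose by 1.69 ± 0.17 in KD (3.22-fold on TPM + 1, limma adjusted p = 4.92e-05) and by 1.29 ± 0.17 in RE against CON (limma adjusted p = 0.000419). Both calls stood under each of the 23 alternatives. RE against KD gave -0.40 ± 0.17 (limma adjusted p = 0.162), and this difference was 0.06 after quantile normalization and 0.01 after correction for transcript length.

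Itga6 (chr2:71745616-71858416, plus strand), the alpha chain that pairs with Itgb4 or Itgb1, was at 60.03, 66.6, 55.0 and 13.1 TPM in CON. KD had 19.9, 22.2, 13.03 and 16.2 TPM, and RE had 9.33, 17.7, 6.19 and 17.8 TPM. CON 1 to CON 3 were each above every KD and RE library, while CON 4 lay within the KD range and the RE range. Itga6 gave -1.20 ± 0.47 in KD against CON (limma adjusted p = 0.141), and -1.73 without CON 4 (limma adjusted p = 0.00297). It also passed with median-of-ratios scaling (-1.22, limma adjusted p = 0.0303) and quantile normalization (-1.29, limma adjusted p = 0.0126). In RE against CON it gave -1.74 ± 0.47 (limma adjusted p = 0.0497), a call that was lost in 16 of 23 alternatives, among them leaving out each CON library except CON 4 and each KD or RE library, with adjusted p up to 0.167. RE against KD gave -0.54 ± 0.47 (limma adjusted p = 0.414).

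Itga3 (chr11:95044474-95076801, minus strand), the alpha chain of a laminin receptor abundant in epithelia, was at 99.3, 90.8, 92.3 and 66.9 TPM in CON. It was at 148, 145, 99.4 and 123 TPM in KD, and at 62.8, 97.6, 75.6 and 76.6 TPM in RE. The KD libraries lay above all CON and all RE libraries, with KD 3 nearest to CON 1. The differences did not pass the test, at 0.55 ± 0.18 for KD against CON (limma adjusted p = 0.0793) and -0.71 ± 0.18 for RE against KD (limma adjusted p = 0.0755). KD against CON passed in 7 of 23 alternatives. Among them were leaving out KD 3 (0.67, limma adjusted p = 0.0397) and correction for transcript length (0.53, limma adjusted p = 0.0160). Others were median-of-ratios scaling (0.53, limma adjusted p = 0.0321) and quantile normalization (0.58, limma adjusted p = 0.0164). RE against KD passed without CON 4, KD 3 or RE 2, with limma adjusted p-values of 0.0301, 0.0395 and 0.0412. Leaving out CON 4, which is in neither group, kept the difference at -0.71 and altered the estimate of spread alone. With KD and RE fitted alone the limma adjusted p was 0.090. RE against CON was -0.16 ± 0.18 (limma adjusted p = 0.528), with the sign turned under 3 alternatives.

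Itga7 (chr10:128933818-128958282, plus strand), the muscle laminin receptor chain, was at 128 to 172 TPM in CON, 131 to 213 in KD and 71.2 to 158 in RE. The groups overlapped in every comparison. The KD against CON difference was 0.20 ± 0.25 (limma adjusted p = 0.739) and the RE against KD difference -0.63 ± 0.25 (limma adjusted p = 0.156). Mettl7b overlaps Itga7 on the opposite strand with 9 shared exonic bases and a mean of 6.69 TPM. No source used here says whether strand was counted, so reads in those bases cannot be assigned.

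Because Itga6 and Itgb4 encode the chains of 1 receptor and Itga6 and Itgb1 those of another, their ratios were taken library by library. These ratios were chosen after the values were seen and are given as a description. Neither ratio passed an exact permutation test adjusted by Benjamini-Hochberg over 24 comparisons of ratios. Both had adjusted p = 0.137 by that test in KD against CON and in RE against CON. Before adjustment each had p = 0.0286 by the exact permutation test, the smallest that 4 against 4 libraries can give. With that floor a ratio could hardly pass over 24 comparisons, so the test decides nothing on these ratios. The ratio of Itgb4 to Itga6 in CON 1 to CON 4 was 0.0506, 0.0420, 0.0554 and 0.292. It was 0.594, 0.548, 1.04 and 0.744 in KD 1 to KD 4, and 0.849, 0.607, 1.61 and 0.466 in RE 1 to RE 4. All CON libraries lay below all other libraries, CON 4 included. The ratio of Itga6 to Itgb1 was 0.0664 in CON 4 and 0.112 to 0.119 in the other CON libraries, against 0.0381 to 0.0472 in KD and 0.0429 to 0.05002 in RE. Here CON 4 was again the CON library nearest to the others, and it stayed above all of them.

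**Figure D3:**
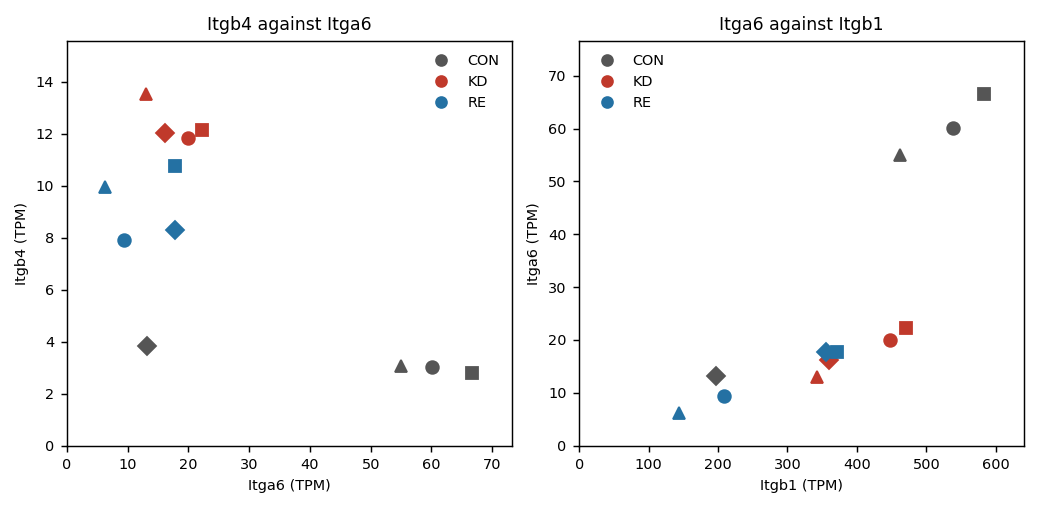
Itgb4 against Itga6 (left) and Itga6 against Itgb1 (right), in TPM on linear axes from 0, 1 point per library with colours for the groups CON, KD and RE and circle, square, triangle and diamond for libraries 1 to 4. In the left panel CON 1 to CON 3 lie at 55.0 to 66.6 TPM of Itga6 and 2.80 to 3.05 TPM of Itgb4, and CON 4 lies at 13.1 TPM of Itga6 with 3.83 TPM of Itgb4, below every KD and RE library in Itgb4.

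The chains that recognise the RGD sequence of fibronectin and vitronectin are Itga5, Itgav, Itgb3 and Itgb5. Itgb5 (chr16:33829665-33949338, plus strand), a vitronectin receptor chain that pairs with Itgav, was at 133, 135, 133 and 129 TPM in CON, at 186, 189, 189 and 174 in KD, and at 132, 202, 164 and 145 in RE. The CON libraries lay within 129 to 135 TPM and below all KD libraries, while the RE libraries spread over both groups. Itgb5 rose in KD by 0.48 ± 0.13 (1.39-fold on TPM + 1, limma adjusted p = 0.0370). The adjusted p was 0.0712 to 0.108 when any KD library or any of CON 1 to CON 3 was left out, and 0.149 with median-of-ratios scaling, with differences of 0.45 to 0.51. RE against CON gave 0.26 ± 0.13 (limma adjusted p = 0.200).

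Itga5 (chr15:103344286-103366763, minus strand), the alpha chain of the main fibronectin receptor, was at 206, 191, 190 and 139 TPM in CON, at 236, 235, 197 and 200 in KD, and at 139, 190, 145 and 173 in RE. All RE libraries were below all KD libraries, and the CON libraries overlapped both. None of its differences passed the test, with -0.43 ± 0.15 for RE against KD (limma adjusted p = 0.137), and 0.03995 without CON 4. With KD and RE fitted alone the limma adjusted p was 0.0919.

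Itgav (chr2:83724397-83806916, plus strand), the shared alpha chain of the RGD receptors with Itgb3 and Itgb5, ranged from 21.7 to 105 TPM within CON, from 42.3 to 93.5 in KD and from 19.8 to 50.8 in RE. Its difference was 0.06 ± 0.48 for KD against CON (limma adjusted p = 0.974), with the sign turned without CON 4 (-0.45). RE against CON gave -0.96 ± 0.48 (limma adjusted p = 0.200) and -1.46 without CON 4 (limma adjusted p = 0.00631). RE against KD gave -1.01 ± 0.48 (limma adjusted p = 0.185), and the adjusted p was 0.0449 without CON 4 and 0.0924 with KD and RE fitted alone. Itgb3 (chr11:104608000-104670476, plus strand), the beta chain known from platelets, osteoclasts and vessels, was at 14.5, 15.2, 14.8 and 9.94 TPM in CON, at 12.7 to 23.2 in KD and at 9.78 to 19.3 in RE. Its groups overlapped in each comparison, and the 95% interval of KD against CON ran from -0.19 to 0.90 (log2).

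Itgb1 (chr8:128685654-128733200, plus strand), the common partner chain, was at 538, 583, 462 and 198 TPM in CON, at 448, 470, 342 and 360 in KD, and at 208, 371, 144 and 356 in RE. CON 4, RE 1 and RE 3 were the lowest of the 12 libraries. No comparison passed the test: KD against CON was -0.04 ± 0.36 (limma adjusted p = 0.978, 95% interval -0.82 to 0.75), RE against KD -0.68 ± 0.36 (limma adjusted p = 0.212) and RE against CON -0.71 ± 0.36 (limma adjusted p = 0.201). Without CON 4, RE against CON was -1.06 (limma adjusted p = 0.00979).

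Between RE and KD, 0 of the 10 subunits passed limma's adjusted test and 5 had an unadjusted p below 0.05, against 1.04% (0.187% upward and 0.858% downward) and 28% of all tested genes. All 10 differences were below 0, as were 71.95% of those of all tested genes, and their median was -0.59 against -0.29 over all tested genes. With median-of-ratios scaling the median over the 10 moved to -0.27 and that over all genes to 0.00, and Itgb5 turned to 0.11. For Itga3, Itga5 and Itgb4 all RE libraries were below all KD libraries, which held for 10.8% of tested genes. Between RE and CON, Itgb4 rose and Itga6 fell, against 6.33% of tested genes that changed (2.7% upward and 3.63% downward). Itgb4 was the subunit whose RE libraries all lay above the CON libraries, as did 4.46% of tested genes. RE against CON gave integrin differences with a median of -0.16 over the 10 and -0.27 over all tested genes. With median-of-ratios scaling these medians were 0.14 and 0.01. Over all tested genes that scaling turned 318 rises and 427 falls in RE against CON into 592 and 504, and 22 rises and 101 falls in RE against KD into 32 and 46. The comparisons share the KD or the CON libraries.

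The libraries that deviated in long transcripts also deviated in several subunits. Over the 12 libraries the Pearson correlation of a subunit's log2 level with the long-transcript deviation was 0.996 for Itgav, 0.971 for Itgb1, 0.868 for Itga5, 0.860 for Itga6, 0.709 for Itga3 and 0.690 for Itgb3. It was 0.392 for Itga1, 0.303 for Itga7, 0.0779 for Itgb5 and -0.258 for Itgb4. These values are a description over libraries that share groups. The longest annotated transcripts of Itgav and Itgb4 have 7054 and 6208 bases, so these 2 long genes lay at opposite ends. That of Itgb1 has 3815 bases, below the cut of 5028 bases for long transcripts. Within CON, correction for transcript length took the SD of Itga3 from 0.249 to 0.0522 and that of Itgav from 1.04 to 0.593, while that of Itgb4 went from 0.150 to 0.541 (log2, n = 4). The part of the long-transcript deviation in these results was not tested beyond this correction.

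**Figure D4:**
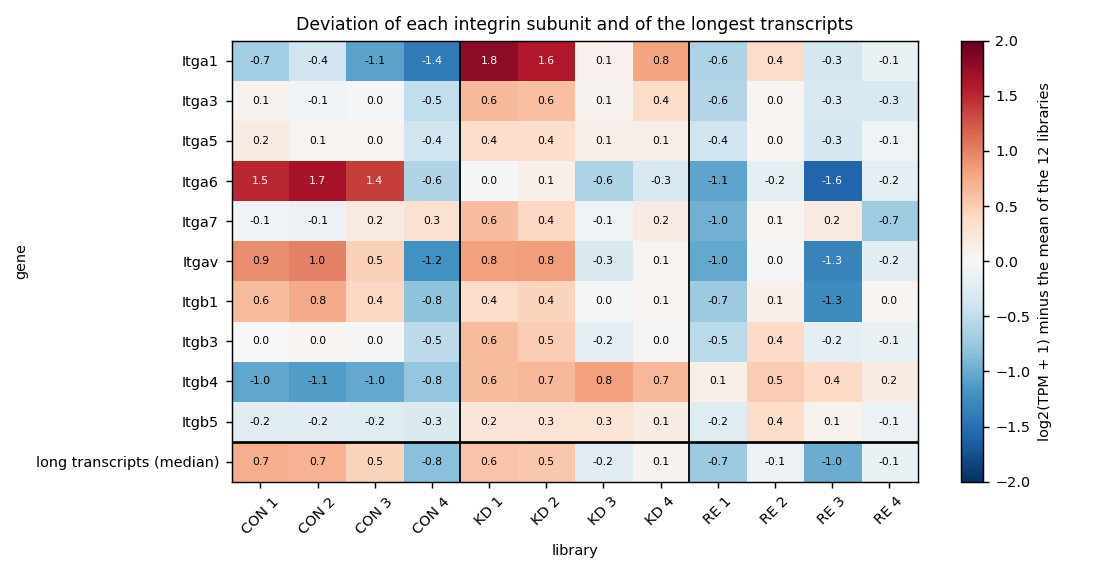
Deviation of log2(TPM + 1) from the mean of the 12 libraries (colour and printed values) for the 10 integrin subunits, one row each, and in the bottom row the median deviation of the 2344 genes with long transcripts, with libraries in columns. CON 4, RE 1 and RE 3 are low in the bottom row, and Itgav and Itgb1 are low in the same libraries.

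As a share of the summed TPM of the 4 beta chains, Itgb1 made up 72.7% ± 9.86 in CON, 65.1% ± 2.94 in KD and 57.8% ± 10.4 in RE (SD, n = 4). Itgb4 made up 0.611% ± 0.347, 2.03% ± 0.326 and 2.15% ± 0.628. As a share of the 6 alpha chains, Itga3 made up 16.1% ± 0.430 in CON, 21.03% ± 0.788 in KD and 19.4% ± 0.712 in RE. The share of Itga3 ran from 15.5% to 16.6% over the CON libraries, CON 4 included, and from 18.6% to 22.2% over the others, so it did not overlap between CON and RE, whose TPM values of Itga3 did. Itga6 made up 8.57% ± 3.67 in CON, 2.89% ± 0.234 in KD and 3.13% ± 1.23 in RE, and CON 4, at 3.17%, lay within the KD range of 2.68% to 3.21%. Itga7 made up 28.4% ± 9.26 in CON (21.9% to 41.7%), 27.8% ± 1.32 in KD and 27.9% ± 7.93 in RE (21.2% to 38.8%). These shares, chosen after the values were seen, are given with no test, and a share falls when another chain rises.

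**Figure D5:**
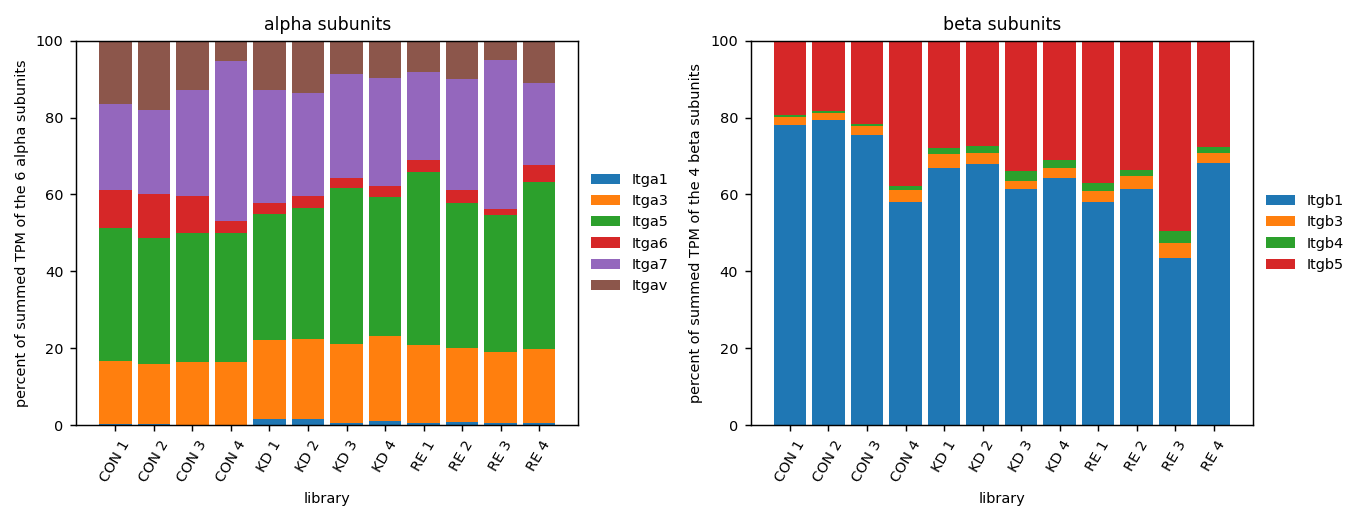
Share of each subunit in the summed TPM of the 6 alpha chains (left) and of the 4 beta chains (right), in percent, 1 stacked bar per library. Itgb1 takes 43.6% to 79.3% of the beta chains, and the share of Itga3 in the alpha chains is 15.5% to 16.6% in CON and 18.6% to 22.2% elsewhere.

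For the subunits that changed, the 2 genes of at least 5 TPM whose log2 levels were most like theirs over the 12 libraries were found among 9616 genes. Itgb4 was most like Nrn1 (Pearson r 0.991) and Tspan32 (0.991), and both were lowest in CON, at 5.99 and 11.2 TPM on average against 56.0 and 40.4 in KD. Itga1 was most like Pak3 (0.974) and Emb (0.973), Itga6 most like Nars (0.991) and Hdhd2 (0.991), and Itgb5 most like Lif (0.967) and Maged2 (0.967). The best of so many correlations is high by choice, and the libraries share their groups.

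Of the 16 other integrin subunits, 11 had a mean below 1 TPM and 5 were tested. Itgb7, a beta chain of lymphocyte homing receptors, was at 50.8, 51.4, 51.7 and 44.1 TPM in CON, at 10.9, 10.8, 19.6 and 22.6 in KD, and at 33.5, 29.5, 21.4 and 35.3 in RE. It fell in KD by 1.64 ± 0.25 on the log2 scale (limma adjusted p = 0.0011), and the call stood under each of the 23 alternatives. Its usual alpha partners Itga4 and Itgae had means of 0.0181 and 0.374 TPM. Itga10, a collagen receptor chain of cartilage, was at 12.9 to 19.9 TPM in CON, 17.4 to 22.1 in KD and 4.10 to 7.24 in RE. The RE libraries lay below all others. Itga10 fell in RE against KD by 1.56 ± 0.21 on the log2 scale (limma adjusted p = 0.00722), which did not pass with median-of-ratios scaling or quantile normalization (limma adjusted p up to 0.0765). Against CON it fell in RE by 1.28 ± 0.21 (limma adjusted p = 0.00241), which did not pass with quantile normalization (limma adjusted p = 0.111). Itgb8, which pairs with Itgav, was at 13.5, 19.4, 12.8 and 0.299 TPM in CON, at 14.5, 21.8, 1.13 and 3.43 in KD and at 0.288 to 2.45 in RE. The low Itgb8 values in CON and KD were those of CON 4, KD 3 and KD 4, and no comparison of Itgb8 passed the test.

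Counts for the proteins that join integrins to actin depended on CON 4, as did those over all tested genes. Of 33 tested cytoplasmic partners (talins, kindlins, vinculin, kinases and adaptors), 0 rose and 1 fell in KD against CON by limma's adjusted test, against 6.6% and 3.61% of all tested genes. An unadjusted p below 0.05 was found for 4 of the 33, against 23.8% of all tested genes, and the median log2 difference was 0.05. The gene that fell was Pxn (paxillin, a scaffold of focal adhesions), at 36.5 to 52.7 TPM in CON and 27.3 to 32.1 in KD, with a difference of -0.64 ± 0.16 (limma adjusted p = 0.0250) that was lost when any KD library or any of CON 1 to CON 3 was left out (limma adjusted p up to 0.0845). In RE against CON 2 of the 33 fell and 0 rose, against 3.63% and 2.7% of all tested genes, Pxn by 0.81 and Tns2, a tensin, by 0.59. Tns2 was lost in 11 of 23 alternatives, among them without each of CON 1, CON 2, CON 3, KD 4, RE 1, RE 2 and RE 3 (limma adjusted p up to 0.165). In RE against KD 0 of the 33 passed limma's adjusted test, against 1.04% of all tested genes, while 9 had an unadjusted p below 0.05, against 28%. Without CON 4, 1 rose and 2 fell in KD against CON, 12 fell in RE against KD, and 2 rose and 21 fell in RE against CON. Over all 11774 tested genes that fit gave 1116 rises and 1296 falls in KD against CON. It gave 453 and 2338 in RE against KD, and 1273 and 4946 in RE against CON. With any other single library left out, 0 or 1 fell in KD against CON and in RE against KD, and 1 or 2 in RE against CON. Falls over all tested genes were then 241 to 584 in KD against CON, 11 to 405 in RE against KD and 256 to 408 in RE against CON. CON libraries enter RE against KD through the estimate of spread alone. With KD and RE fitted alone, 0 of the 33 passed in that comparison, against 10 rises and 39 falls over all tested genes. Of 15 membrane partners, 3 rose in KD against CON and 0 fell, against 6.6% and 3.61% of all tested genes, and with median-of-ratios scaling 0 rose. Bsg (basigin) rose by 0.80, Cd9 (a tetraspanin) by 0.77 and Sdc1 (syndecan) by 0.46 on the log2 scale. Leaving out any KD library or any of CON 1 to CON 3 ended the calls of Bsg and Sdc1 (limma adjusted p up to 0.197 for Bsg over its alternatives and 0.130 for Sdc1), and Sdc1 was also lost without CON 4, RE 1 or RE 4. Cd9 was lost with median-of-ratios scaling and without CON 4 with the length correction (limma adjusted p up to 0.0842). In RE against KD 0 of the 15 passed and 4 had an unadjusted p below 0.05, against 1.04% and 28% of all tested genes. Without CON 4 there were 2 that fell, against 2338 of the 11774 tested genes, and with KD and RE fitted alone 0 fell. In RE against CON 1 rose and 1 fell, against 2.7% and 3.63% of all tested genes. Without CON 4 these counts were 4 and 5, against 1273 and 4946 of the 11774 tested genes. In that comparison Bsg rose by 0.80 and Slc3a2, the heavy chain of amino acid transporters that binds integrin beta tails, fell by 0.69. Bsg was lost in 9 of 23 alternatives, among them without each of CON 1, CON 2, CON 3, KD 4, RE 1, RE 2 and RE 3, and Slc3a2 with median-of-ratios scaling (limma adjusted p up to 0.116 and 0.141).

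Of 31 tested genes for matrix ligands, 2 rose and 2 fell in KD against CON, against 6.6% and 3.61% of all tested genes, with a median of 0.17. Spp1 (osteopontin, an RGD ligand of Itgav receptors) was at 4249 to 4929 TPM in CON and 7475 to 8989 in KD, and rose by 0.84 ± 0.14, a call lost under quantile normalization. Lama4, a laminin alpha chain, was at 28.6, 30.8, 28.8 and 21.5 TPM in CON, at 58.2, 60.8, 41.2 and 44.5 in KD, and at 8.63, 15.4, 12.4 and 13.03 in RE. The 3 groups did not overlap, with KD highest and RE lowest. Lama4 rose in KD by 0.87 ± 0.21 and fell in RE against KD by 1.97 ± 0.21, and the fall stood under each of the 25 alternatives. The rise did not pass without KD 1 or KD 2, with limma adjusted p up to 0.0702. Npnt (nephronectin, a ligand of Itga8 with Itgb1) was at 2.66 to 8.39 TPM in CON and 0.174 to 0.661 in KD, and fell by 2.26 ± 0.28. Col1a1 (a collagen I chain, a ligand of collagen-binding integrins) fell by 0.75 ± 0.19, and the call was lost without CON 1, CON 2, CON 3 or KD 4 (limma adjusted p up to 0.0798). In RE against KD 0 of the 31 rose and 5 fell, against 0.187% and 0.858% of all tested genes. Beside Lama4 they were Fn1 by 1.56, Col1a1 by 1.05, Lamb2 by 0.90 and Col1a2 by 0.85. Fn1 (fibronectin, the ligand of Itga5) was at 1255 to 2402 TPM in KD and 461 to 772 in RE. All 4 failed the test in 12 to 14 of 25 alternatives, also when 1 library among CON 1 to CON 3, KD 1, KD 2, RE 1 and RE 3 was left out (limma adjusted p up to 0.193), and some also without KD 4 (Fn1, Lamb2 and Col1a2) or RE 4 (Fn1, Col1a1 and Col1a2). The median over the list was -0.90 against -0.29 over all tested genes. In RE against CON 2 rose and 10 fell, against 2.7% and 3.63% of all tested genes. Ctgf (connective tissue growth factor, a matricellular protein) rose by 1.72, a call lost without CON 1, CON 2, CON 3 or RE 1 (limma adjusted p up to 0.0596). Lama2 (the laminin alpha chain of the muscle basement membrane) was at 3.06 to 14.3 TPM in CON and 0.397 to 1.56 in RE, without overlap. Without CON 4 alone, 3 of the matrix genes rose and 5 fell in KD against CON, 19 fell in RE against KD, and 2 rose and 24 fell in RE against CON. Over all 11774 tested genes the same fit gave 1116 rises and 1296 falls in KD against CON. It gave 2338 falls in RE against KD, and 1273 rises and 4946 falls in RE against CON. With any other single library left out, 1 to 10 fell in RE against KD, the most without RE 2 (10) and KD 3 (7), and 6 to 10 fell in RE against CON. Falls over all tested genes were then 11 to 405 and 256 to 408. With KD and RE fitted alone, 2 of the matrix genes fell in RE against KD, against 39 of all tested genes. Without CON 4, RE 1 and RE 3, 6 of the matrix genes rose and 7 fell in KD against CON, 2 fell in RE against KD, and 2 rose and 15 fell in RE against CON. Over all tested genes 1676 then rose and 2960 fell in KD against CON. In RE against KD 34 fell, and in RE against CON 957 rose and 2824 fell.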

How the data were processed

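The authors deposited TPM values of 23184 genes in 12 libraries of HL-1 cells, and each column sums to 1000000, so depth is unknown and no counting interval is given. Trim Galore 0.6.6, TopHat2 2.1.1, Cufflinks 2.2.1 and the mm10 build are named in the submitters' processing notes. The way TPM was made, the annotation and the use of strand are not given in the sources used here. Control columns are headed WT and were taken as CON from the genotype label, so CON 1 to CON 4 are column numbers that pair with no other library.

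The 11774 genes averaging 1 TPM or more were tested on log2(TPM + 1), a scale that understates changes of low genes, with limma 3.58.1 in R 4.3.3. All 12 libraries entered 1 model with a mean-variance trend, and two-sided p-values were adjusted by Benjamini-Hochberg over all tested genes for each comparison. The CON libraries thus enter RE against KD through the estimate of spread alone, and leaving out CON 4 did not alter the differences of that comparison. A gene is called changed at an adjusted p under 0.05. An exact permutation test of 4 against 4 libraries cannot give a p below 0.0286. The script was tested on simulated data. Alternatives were a pseudocount of 0.1, a TPM minimum of 5 or none, quantile normalization, median-of-ratios scaling, the compared groups alone, robust moderation, array weights, a correction for transcript length (loess, span 0.5), a replicate block, a minimum absolute log2 fold change of 1, and leaving out libraries. Leaving out CON 4 together with the length correction was chosen after seeing the data.

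Members and gene lists were chosen with earlier results of these data known. Named genes were the members, Wdr62, up to 5 changed genes of each list and comparison by size, and for each changed member the 2 genes most like it. Other names are given for their values and were chosen after those were seen. Positions and transcript lengths come from GENCODE M21 (GRCm38, the assembly of mm10), promoter windows from RefSeq.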

Additional observations from a re-analysis of the deposited data

Results flagged for a closer look

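Itgb3 in CON 4 was at 9.94 TPM, against 14.5 to 15.2 TPM in the other CON libraries. The gap to the nearest library was 0.873 of the group's range, above Dixon's 95% critical value for 4 samples. Of 30 groups of member values looked at, 1 was picked out in this way, and chance alone picks about 1 in 20. CON 4 was also the CON library with a long-transcript deviation of -0.83, whose part in this value was not tested.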

How the results depend on the processing

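Itga1 and Itgb4 in KD against CON and Itgb4 in RE against CON passed the test in every alternative that could be fitted (22 for Itga1, which is untested at 5 TPM, and 23 for Itgb4). The number of subunits changed in KD against CON, 3 in the report, was 5 with quantile normalization, 8 with array weights, 6 without CON 4, RE 1 and RE 3, and 5 without CON 4 with the length correction, and 2 to 4 when 1 library was left out. Over all genes the count of 1202 became 1904, 6433, 4636 and 3117 under these settings, 693 with a log2 change of at least 1, and 744 to 2412 with 1 library left out. In RE against KD the 0 subunits became 7 with array weights, 1 without CON 4 with the length correction, and 0 to 4 with 1 library left out. The all-gene count of 123 became 78 with median-of-ratios scaling, 49 in the compared groups alone, 5305 with array weights, 50 without CON 4, RE 1 and RE 3, 1853 without CON 4 with the length correction, 79 with a log2 change of at least 1, and 13 to 2791 with 1 library left out. In RE against CON the 2 subunits became 1 with a pseudocount of 0.1, no filter, a filter of 5 TPM, the compared groups alone or robust moderation, 4 with array weights, 5 without CON 4 with the length correction, and 1 to 4 with 1 library left out. The all-gene count of 745 became 452 with the filter of 5 TPM, 1178 with quantile normalization, 409 in the compared groups alone, 6386 with array weights, 3781 without CON 4, RE 1 and RE 3, 5960 without CON 4 with the length correction, and 417 to 6219 with 1 library left out. The cause of these shifts was not tested.

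The replicate block could be fitted only for RE against KD, since the control columns carry no sample number. No paired analysis was possible because of this for KD against CON and RE against CON. Same-numbered KD and RE libraries correlated in their deviations at -0.55, 0.65, 0.24 and -0.25. These correlations differ in sign and cannot settle whether the numbers pair the samples. With the block 3 subunits (Itga1, Itga3 and Itgav), 11 cytoplasmic partners, 20 matrix genes and 2021 genes in all passed in RE against KD, and with the block and the length correction 0 subunits and 765 genes.

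Signs turned in differences that had not passed. Itgav in KD against CON was -0.18 with array weights, -0.45 without CON 4, RE 1 and RE 3, -0.22 without CON 4 with the length correction, and -0.45 to 0.29 with 1 library left out, and Itgb1 was -0.39 to 0.13 in the last. In RE against KD, Itga6 was 0.0204 without CON 4, RE 1 and RE 3, Itgb5 0.11 with median-of-ratios scaling, and quantile normalization gave 0.0504 for Itgb3 and 0.0616 for Itgb4. The length correction, alone, without CON 4 or with the block, gave 0.0049 for Itgb3 and 0.0057 for Itgb4. In RE against CON, median-of-ratios scaling, the length correction, and that correction without CON 4 gave 0.14, 0.0835 and 0.0912 for Itga3, 0.14, 0.0241 and 0.002 for Itga5, and 0.28, 0.35 and 0.39 for Itgb3. Itgb3 was also 0.42 with quantile normalization, 0.105 without CON 4, RE 1 and RE 3, and -0.17 to 0.14 with 1 library left out.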
